A study of Caenorhabditis elegans with 64 samples.

Results

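A group of 10 genes of the meiotic chromosome axis and the synaptonemal complex was followed through the small RNA and mRNA libraries of a Caenorhabditis elegans series on simr-1. They were taken by their WormBase names: rec-8, him-3, htp-1, htp-2, htp-3, syp-1, syp-2, syp-3, syp-4 and spo-11. All 10 were found among the 45904 sequence names of the mRNA tables and among the 31106 genes of the small RNA tables. Mutant animals carried simr-1(cmp36), strain USC863, and wild-type animals were the N2 strain. Each genotype was sampled at 5 conditions, at 20 °C and in generations 1, 2, 7 and 10 of culture at 25 °C. There were 2 small RNA libraries and 3 mRNA libraries in each of these 10 groups, which made 20 and 30 libraries. A further 14 small RNA libraries at 20 °C, 1 per strain, held 13 mutant strains and 1 N2 wild-type library. The single mutants among them carried mut-16(pk710), rde-8(tm2252), wago-1(tm1414), math-33(ok2974), rsd-2(pk3307), hgo-1(tm4989), F37C4.5(ok3454), C33G3.6(cmp44), Y57G11C.3(cmp47), hpo-40(cmp46) or simr-1(cmp36). The double mutants carried simr-1(cmp36) with hpo-40(cmp46), and nyn-1(tm5004) with nyn-2(tm4844). All RNA came from whole worms that had been plated as synchronized larvae and collected as adults, earlier after plating at 25 °C than at 20 °C. Temperature and time on the plate therefore cannot be told apart. Each generation was also a separate harvest, so generation and harvest cannot be told apart either. The labels do not say whether replicates were separate cultures, so the p-values measure only the spread between these samples.

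In meiotic prophase each chromosome is organized along a protein axis built on cohesin, to which proteins of the HORMA domain family bind. Axes of paired homologs are then zipped together along their length by the synaptonemal complex, whose central region in worms is made of SYP proteins. Recombination starts from double-strand breaks made by the topoisomerase-like enzyme SPO-11, and crossovers formed from them hold homologs together until they are segregated. In C. elegans these steps take place in the germline, in cells between the mitotic zone and the oocytes. Small RNAs of the 22G class are antisense to germline transcripts and are bound by Argonaute proteins. SIMR-1 is a Tudor domain protein that was identified beside the mutator complex, which makes many of these small RNAs.

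The axis genes htp-1 (chromosome IV, 5390184 to 5391557, minus strand, 4 exons, in the WBcel235 genome) and htp-2 (chromosome IV, 6419500 to 6420898, plus strand, 4 exons) are close paralogs. The stretches below are shown because a read from their identical part can come from either copy. Each is 112 bases of coding sequence in a single exon, from the RefSeq WBcel235 genome, read 5′ to 3′ on the gene's strand, at chrIV:5391007-5391118 for htp-1 and chrIV:6419967-6420078 for htp-2. Capitals mark the 5 positions at which the copies differ, and the longest identical run between them is 62 bases.
htp-1: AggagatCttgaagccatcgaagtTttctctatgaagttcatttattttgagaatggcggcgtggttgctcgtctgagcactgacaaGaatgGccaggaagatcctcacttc
htp-2: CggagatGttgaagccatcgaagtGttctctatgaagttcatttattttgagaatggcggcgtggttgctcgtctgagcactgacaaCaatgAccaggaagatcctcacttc
Of the 22-base windows in the exons, the size of a 22G small RNA, htp-1 shared 120 of 1213 with htp-2 (9.89%), and no window of 75 bases was shared. Estimated mRNA counts were not whole numbers in 29 of 30 libraries for htp-1 and for htp-2, while their sum was whole in all 30. Their separate values therefore include reads that were divided between the 2 genes.

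REC-8 is the meiosis-specific kleisin subunit of cohesin. HIM-3, HTP-1, HTP-2 and HTP-3 are the HORMA domain axis proteins, with HTP-3 the one that recruits the others. SYP-1, SYP-2, SYP-3 and SYP-4 make up the central region of the synaptonemal complex and depend on each other to load. In the deposited annotation (WS258 exons, on the WBcel235 genome) rec-8 lay on chromosome IV from 13348870 to 13353193 on the minus strand, with 8 exons. him-3 was on chromosome IV from 6977517 to 6978943 (plus strand, 4 exons) and spo-11 on chromosome IV from 11123133 to 11124862 (minus strand, 7 exons). htp-3 was on chromosome I from 4827072 to 4829794 (plus strand, 9 exons). The syp-1 gene occupied 16405751 to 16407699 of chromosome V (plus strand, 6 exons) and syp-2 occupied 5536681 to 5537713 of the same chromosome (plus strand, 4 exons). On chromosome I, syp-3 ran from 8663048 to 8664143 (minus strand, 5 exons) and syp-4 from 6847511 to 6849923 (plus strand, 8 exons). Exons of 3 members overlapped exons of a gene on the opposite strand: syp-3 shared 80 bases (8.99% of its exon length) with mrt-1, spo-11 shared 23 bases with enpl-1 and him-3 shared 8 bases with prkl-1. The small RNA counts did not use strand, so reads in those bases could belong to either gene.

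The mRNA libraries held 8055126 to 38633453 counts on genes and the replicated small RNA libraries 2835252 to 12893224. The simr-1 transcript was at 6.23 to 29.1 CPM (counts per 1000000 counts after TMM scaling over the 30 libraries) in simr-1 mutants and 45.3 to 230.1 CPM in wild-type animals, so the genotype labels held in every library. Within simr-1 mutants it was higher late, at 6.23 to 8.40 CPM up to generation 2, 18.9 to 21.4 CPM in generation 7 and 27.8 to 29.1 CPM in generation 10. Wild-type animals of generation 10 had 108 to 122 CPM. The cause of the late rise was not tested. Transcripts of all germline, oocyte and somatic markers were detected in every group, and the 11 sperm markers summed to 41.5 to 100.5 CPM. In small RNA the somatic markers dpy-7 and myo-2 were at 0 in both libraries of some groups, dpy-7 in simr-1 mutants of generations 1, 2, 7 and 10 and in wild-type animals of generation 1, and myo-2 in wild-type animals of generations 1 and 7. In generation 1 at 25 °C the 10 oocyte marker transcripts summed to 10654 to 11400 CPM in simr-1 mutants but 2829 to 3360 CPM in wild-type animals. In generation 2 they were at 4152.5 to 5091 CPM in simr-1 mutants and 2814 to 4728 CPM in wild-type animals. All other groups lay between 9445 and 11770 CPM. The share of genome-mapped small RNA reads that fell on genes was 42.4 to 43.5% in wild-type animals of generation 1. It was 45.3 to 50.8% in simr-1 mutants and 41.1 to 43.2% in wild-type animals of generation 2, and 58.7 to 69.4% in all other replicated small RNA libraries.

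Small RNA reads on the members were abundant and unequal. Levels are in RPM, reads on a gene per 1000000 genome-mapped reads, and are divided by exon length where genes are compared. Per kilobase of exon in wild-type animals at 20 °C, htp-1 was far above the rest with 465.9 RPM per kb, and him-3 (158.9), htp-3 (122.7), htp-2 (114.9) and syp-4 (108.5) followed. A lower set held syp-1 (52.7), rec-8 (51.5), syp-2 (34.4), syp-3 (21.9) and spo-11 (13.4). Of neighbours in this order, only syp-1 and rec-8 had overlapping replicates. In mRNA the order was flatter: htp-1 and him-3 had the highest means (115.4 and 115.1 CPM per kb, with overlapping replicates) and syp-1 the lowest mean (46.5 CPM per kb). Neighbours that overlapped were also syp-3 (69.8) and htp-3 (69.6), spo-11 (54.8) and rec-8 (53.3), and rec-8 and syp-1.

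After 1 generation at 25 °C, small RNAs on all 10 members were more abundant in simr-1 mutants than in wild-type animals. The cohesin gene rec-8 had 91.6 and 94.5 RPM in simr-1 mutants and 25.5 and 28.3 RPM in wild-type animals. At 20 °C it had 139.6 and 138 RPM in simr-1 mutants and 144 and 136 RPM in wild-type animals. Both mutant libraries thus lay well above both wild-type libraries in generation 1, whereas the ranges overlapped at 20 °C. With edgeR's quasi-likelihood test and Benjamini-Hochberg adjustment, the log2 fold change of rec-8 in generation 1 was 1.32 ± 0.09 (SE, adjusted p = 1.02e-07). Fold changes here are on the TMM scale, which assumes that most genes are unchanged, and in generation 1 they are smaller than the ratios of RPM.

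The axis genes differed by as much. htp-1, whose product couples homolog pairing to synapsis, had 399.9 and 407 RPM in simr-1 mutants and 122 and 114 RPM in wild-type animals of generation 1 (log2 1.30 ± 0.05, adjusted p = 2.38e-09, edgeR). htp-3 had 206 and 201 RPM in simr-1 mutants, against 56.6 and 55.2 RPM in wild-type animals. him-3 had 101 and 111 RPM in simr-1 mutants and 26.1 and 25.7 RPM in wild-type animals, and its log2 fold change of 1.56 was the highest of the 10. For htp-2 the libraries held 132 and 134 RPM in simr-1 mutants and 43.9 and 44.9 RPM in wild-type animals (log2 1.11). The 2 genotypes did not overlap for any of these axis genes, and replicates within a genotype were close.

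Among central region genes, syp-4 had 122 and 112 RPM in simr-1 mutants and 29.6 and 29.5 RPM in wild-type animals of generation 1 (log2 1.51 ± 0.08, adjusted p = 1.45e-08, edgeR). syp-1 stood at 71.3 and 71.0 RPM in simr-1 mutants and 18.9 and 19.9 RPM in wild-type animals (log2 1.40). syp-2 had 38.6 and 38.3 RPM in simr-1 mutants, against 14.7 and 13.9 RPM in wild-type animals (log2 0.95). The smallest differences were at the 2 members with fewest small RNAs per length. syp-3 had 15.5 and 16.4 RPM in simr-1 mutants and 7.75 and 9.15 RPM in wild-type animals (log2 0.46, adjusted p = 0.0127, edgeR), and spo-11 had 24.9 and 20.0 RPM in simr-1 mutants and 12.1 and 10.8 RPM in wild-type animals (log2 0.45, adjusted p = 0.0126, edgeR). These 2 calls were lost with DESeq2 (adjusted p = 0.175 for syp-3 and 0.0852 for spo-11). They were also lost for syp-3 without simr-1 replicate 2 (adjusted p = 0.29, edgeR) or wild-type replicate 1 (0.263), and for spo-11 without simr-1 replicate 1 (0.0712) or wild-type replicate 2 (0.131). With edgeR's expression filter or all 10 groups in 1 fit neither passed. The other 8 members passed under every alternative at this threshold, though a 2-fold limit removed syp-2.

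The test passed 35.7% of all genes as higher in simr-1 mutants in generation 1, and 17.5% with limits of 2-fold and 10 RPM, which 7 of the 10 members met. The median log2 fold change was 1.31 over the members and -0.10 over all genes tested, and 1.78 and 0.37 when libraries were scaled to genome-mapped reads alone. Under that scaling all 10 members passed as higher, and 62.6% of the genes called were higher. Fewer germline cells in an animal and fewer small RNAs or transcripts per cell cannot be told apart in such bulk samples, here or in the results that follow. Germline markers moved with the members in the same libraries: small RNAs on the 15 germline marker genes summed to 3293 to 3324 RPM in simr-1 mutants and 909 to 926 RPM in wild-type animals, and those on the 10 oocyte markers to 1422 to 1461 RPM in simr-1 mutants and 351 to 356 RPM in wild-type animals. The 10 somatic markers summed to 26.7 to 27.2 RPM in simr-1 mutants and 61.4 to 66.9 RPM in wild-type animals. Of those at 10 RPM or more, vit-2 (log2 -2.66) and unc-119 (-1.78) fell most. The part of the germline, oocyte and somatic markers in the result was not tested.

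**Figure D1:**
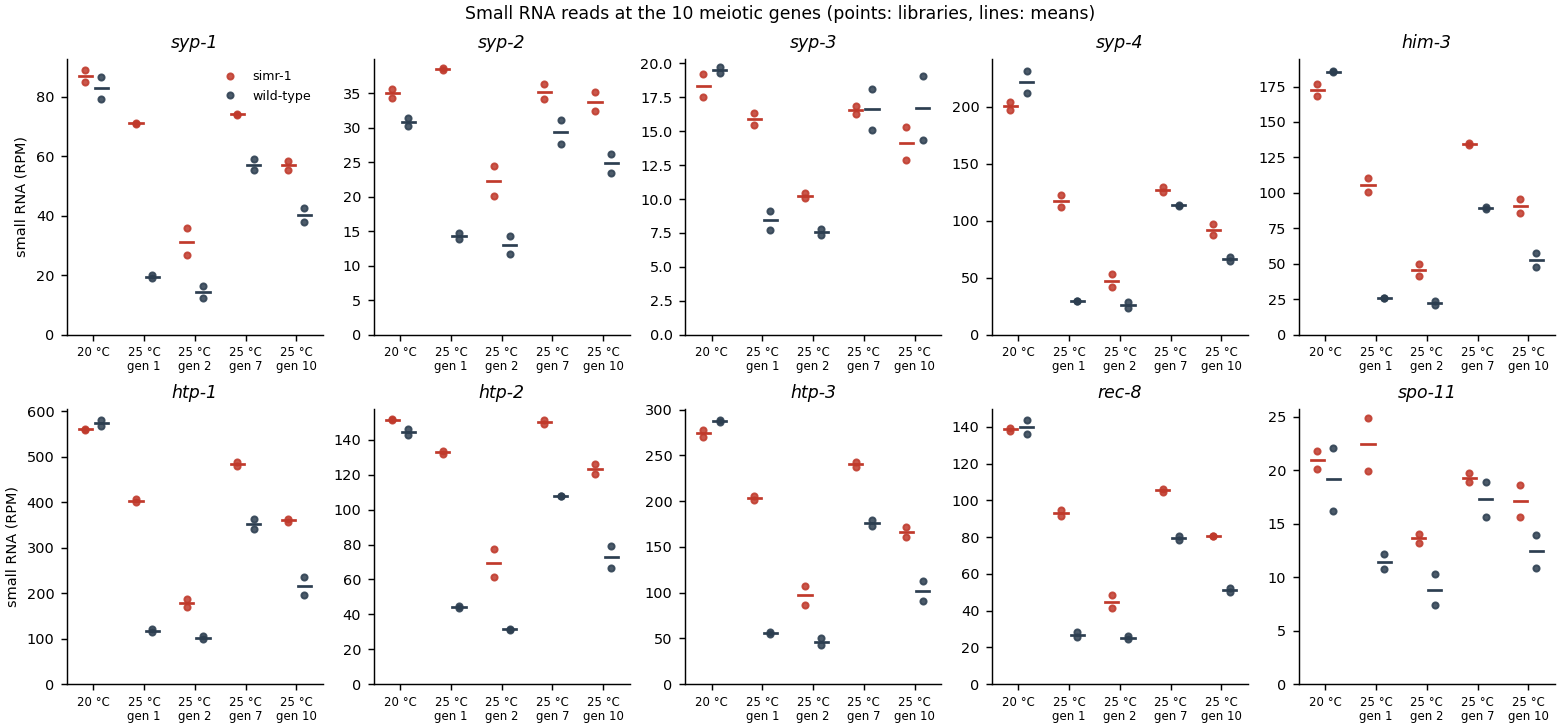
Small RNA level (RPM, vertical axis from 0) of each of the 10 members, 1 panel per gene, at 20 °C and in generations 1, 2, 7 and 10 at 25 °C. Points are libraries (2 per group) and short lines group means, simr-1 in red to the left of wild-type in dark grey at each condition; for htp-1 in generation 1 the simr-1 points are at 399.9 to 407 RPM and the wild-type points at 114 to 122 RPM.

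At 20 °C the genotypes were close. Of the 10 members, 4 passed as lower in simr-1 mutants (20.4% of all genes did) and none as higher (13.9% of all genes). These were syp-4 with 204 and 197 RPM in simr-1 mutants and 231 and 212 RPM in wild-type animals (log2 -0.23, adjusted p = 0.000523, edgeR), him-3 (log2 -0.19), htp-3 (log2 -0.15) and htp-1 (log2 -0.12). The differences were small, and only 1 of the 10 passed with DESeq2 or with scaling to genome-mapped reads, and 0 when all 10 groups shared 1 fit.

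From generation 2 to generation 10 most members were higher in simr-1 mutants, by smaller estimates than in generation 1. In generation 2, 8 members passed as higher (22.9% of all genes), all but syp-3 (log2 0.07) and spo-11 (log2 0.30). him-3, for example, had 49.9 and 41.2 RPM in simr-1 mutants and 23.8 and 20.97 RPM in wild-type animals (log2 0.66, adjusted p = 0.000834, edgeR). In generation 7 there were 6 (20.1% of all genes): him-3, htp-1, htp-2, htp-3, rec-8 and syp-1, with log2 fold changes from 0.29 for syp-1 to 0.50 for him-3. All 4 axis genes of the HORMA family were in this set, and htp-1 had 479 and 489 RPM in simr-1 mutants against 342 and 363 RPM in wild-type animals. Generation 10 gave 9 (28.4% of all genes), from 0.38 for syp-2 to 0.73 for him-3 (adjusted p = 5.95e-05, edgeR), and syp-3 did not pass (log2 -0.29, adjusted p = 0.134, edgeR). syp-3 had 15.3 and 12.9 RPM in simr-1 mutants and 14.4 and 19.1 RPM in wild-type animals there, the only member whose mean was lower in the mutant.

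Marker small RNAs moved in the same libraries. The 15 germline markers summed to 1365 to 1641 RPM in simr-1 mutants and 786 to 857 RPM in wild-type animals of generation 2, to 3566 to 3584 RPM in simr-1 mutants and 2893 to 2945 RPM in wild-type animals of generation 7, and to 2809 to 2815 RPM in simr-1 mutants and 1762 to 1987 RPM in wild-type animals of generation 10. The 10 somatic markers went the other way, with 27.8 to 28.1 RPM in simr-1 mutants and 127 to 138 RPM in wild-type animals of generation 2, 18.8 to 19.4 RPM in simr-1 mutants and 123 to 130 RPM in wild-type animals of generation 7, and 64.7 to 93.4 RPM in simr-1 mutants and 368 to 447 RPM in wild-type animals of generation 10. In all 3 generations the genotypes did not overlap for either list. Of the somatic markers at 10 RPM or more, unc-119 and vit-2 fell most in generations 2, 7 and 10. Their log2 values were -3.47, -3.94 and -5.15 for unc-119 and -3.20, -3.05 and -1.85 for vit-2. The study made its deletion alleles in unc-119 mutants with an unc-119 rescue cassette, so unc-119 is a poor tissue marker between these genotypes. How far the somatic sums rest on unc-119 and vit-2 was not tested. The part of these markers in the differences of the members was not tested.

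Of the 2 genotypes, wild-type animals were the further from their 20 °C level in generation 1. Summed over the 10 members, small RNAs were at 1203 to 1205 RPM in simr-1 mutants and 351 to 357 RPM in wild-type animals of generation 1, and at 1647 to 1672 RPM in simr-1 mutants and 1678 to 1736 RPM in wild-type animals at 20 °C. In wild-type animals, 7 members passed as lower in generation 1 than at 20 °C (29.8% of all genes), 6 of them 2-fold or more (6.71% of all genes). syp-4 had 29.6 and 29.5 RPM in generation 1 and 231 and 212 RPM at 20 °C (log2 -2.04 ± 0.07, adjusted p = 1.11e-13, edgeR). him-3 had 26.1 and 25.7 RPM in generation 1 and 186 and 185 RPM at 20 °C (log2 -1.97). rec-8, htp-3, htp-1 and syp-1 fell by 1.51, 1.49, 1.42 and 1.23 on the log2 scale, and htp-2 by 0.84. The remaining 3 gave log2 values of -0.24 for syp-2, -0.35 for syp-3 and 0.11 for spo-11, none of which passed. This comparison depended on the scaling: the all-gene median was 0.07 with TMM and -0.79 with genome-mapped reads. Under the second scaling all 10 members passed as lower, spo-11 included at -0.75, and only 24.8% of the genes called were higher.

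In simr-1 mutants, too, most members had fewer small RNAs in generation 1 than at 20 °C. Of the 10, 6 members passed as lower (23.5% of all genes) and 1, syp-2, as higher (22.3% of all genes; log2 0.27). syp-4 had 122 and 112 RPM in generation 1 and 204 and 197 RPM at 20 °C (log2 -0.65, adjusted p = 1.63e-07, edgeR). him-3, rec-8, htp-1, htp-3 and syp-1 gave -0.56, -0.44, -0.34, -0.30 and -0.15. When libraries were scaled to genome-mapped reads, 7 members passed as lower and none as higher, with syp-2 at 0.14 (adjusted p = 0.168, edgeR). That scaling put the all-gene median at -0.15 instead of -0.02 and the median of the members at -0.36 instead of -0.22. Only 32.5% of the genes it called were higher. The difference between the genotypes in this response was tested itself, as the interaction of genotype and condition, and 9 members passed it as higher in simr-1 mutants (23.7% of all genes), from 0.50 for syp-3 to 1.63 for him-3. spo-11 did not pass.

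Later generations differed from generation 1 in both genotypes. In generation 2 the wild-type level stayed low: htp-1 had 105 and 98.5 RPM, against 122 and 114 RPM in generation 1, and htp-2 was the only member that passed (log2 -0.45, adjusted p = 0.0403, edgeR; 1.51% of all genes were lower). In simr-1 mutants the same step lowered 9 members (23.7% of all genes), from -0.34 for spo-11 to -0.96 for syp-4, all but syp-3. htp-1 in simr-1 mutants had 187 and 169.6 RPM in generation 2, against 399.9 and 407 RPM in generation 1. By generation 7 rec-8 was at 106 and 105 RPM in simr-1 mutants and 78.6 and 80.7 RPM in wild-type animals, above generation 2 in both genotypes. Relative to generation 1, 8 members were higher in wild-type animals of generation 7 (29% of all genes, 3.66% 2-fold; syp-4 log2 1.23 and him-3 1.07 were past 2-fold) and 5 were higher in simr-1 mutants (9.69% of all genes; 0.18 to 0.34). Scaled to genome-mapped reads, which put the all-gene median of the wild-type comparison at 0.67 instead of -0.04, all 10 members were higher in wild-type animals of generation 7, with a median of 1.56 instead of 0.84, and 8 were past 2-fold. Of the genes called under this scaling 75.6% were higher, and the share of all genes past 2-fold was not computed for it. spo-11 then passed at 0.58, below the all-gene median, where the TMM value was -0.13.

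In generation 10 against generation 1, wild-type animals had 5 members higher (21.8% of all genes; log2 0.21 for htp-1 to 0.50 for syp-4) and spo-11 lower (24.4% of all genes; -0.55, adjusted p = 0.0212, edgeR). Scaled to genome-mapped reads, the all-gene median was 0.63 instead of -0.03, and 78.4% of the genes called were higher. Under that scaling 9 members passed as higher and none as lower, with a median of 0.90 instead of 0.24, and spo-11 turned to 0.11. Only 1 of these 6 passed with DESeq2, and 2 passed without wild-type generation 10 replicate 2 or without generation 1 replicate 1. simr-1 mutants had 0 members past the threshold in edgeR's quasi-likelihood test and 0 with DESeq2. At an unadjusted p under 0.05 in the edgeR test there were 3 members, beside 4312 of all genes tested. When libraries were scaled to genome-mapped reads, 6 passed as lower. That scaling put the all-gene median at -0.17, beside -0.22 over the members, and only 23.7% of the genes it called were higher. The interaction of genotype with generation had a median of -0.28 over all genes and -0.59 over the members. All members past its threshold had a smaller simr-1 effect in generation 10 than in generation 1. It passed for 8 members (28.2% of all genes), from -0.43 for syp-2 to -0.96 for syp-4. This count fell to 3 without simr-1 generation 10 replicate 1 or without wild-type generation 1 replicate 1, to 5 without wild-type generation 1 replicate 2, and to 2 with the expression filter of edgeR.

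Transcript differences between the genotypes went in both directions. Over the 5 conditions the log2 fold changes of the members ran from -0.51 to 0.83 in mRNA and from -0.29 to 1.56 in small RNA. At 20 °C only syp-2 passed between genotypes, with 88.5, 83.8 and 88.2 CPM in simr-1 mutants and 73.0, 73.4 and 77.6 CPM in wild-type animals (log2 0.20, adjusted p = 0.0364, edgeR; 10.1% of all genes were higher and 11.9% lower). The 2 genotypes did not overlap, but no member passed with DESeq2 or without simr-1 replicate 1, simr-1 replicate 3 or wild-type replicate 2. With no filter on low counts syp-2 did not pass and rec-8 passed as lower (adjusted p = 0.0421, edgeR). rec-8 had 124, 125 and 119.8 CPM in simr-1 mutants and 180.4, 132 and 122 CPM in wild-type animals, where replicate 1 lay apart from the other 2.

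In generation 1 at 25 °C, 7 members were higher (31.8% of all genes) and 1 was lower (36.7% of all genes) in simr-1 mutants than in wild-type animals. The central region genes split. syp-2 had 82.6, 82.1 and 90.2 CPM in simr-1 mutants and 49.9, 48.0 and 50.2 CPM in wild-type animals (log2 0.83 ± 0.07, adjusted p = 9.67e-10, edgeR), the largest rise of the 10. syp-1, whose product spans the width of the complex, had 73.1, 74.7 and 78.2 CPM in simr-1 mutants and 106, 113 and 113 CPM in wild-type animals (log2 -0.51 ± 0.06, adjusted p = 5.99e-07, edgeR), the only member that fell. Neither gene's genotypes overlapped. syp-4 had 146, 153 and 149 CPM in simr-1 mutants and 118.8, 114 and 121 CPM in wild-type animals, and syp-3 had 62.8, 63.7 and 65.3 CPM in simr-1 mutants and 47.6, 49.0 and 56.0 CPM in wild-type animals (log2 0.39 and 0.38).

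Among axis genes, him-3 rose to 119.7, 122 and 121 CPM in simr-1 mutants, against 93.5, 93.0 and 100.0 CPM in wild-type animals (log2 0.38, adjusted p = 1.17e-05, edgeR). htp-1 and htp-2 rose by nearly as much, with 119.4, 114 and 118 CPM and 77.6, 79.5 and 77.9 CPM in simr-1 mutants, against 96.3, 95.2 and 96.8 CPM and 61.1, 62.6 and 65.4 CPM in wild-type animals (log2 0.33 and 0.36). htp-3 had 133, 138 and 131 CPM in simr-1 mutants and 138, 132 and 135 CPM in wild-type animals, with overlapping libraries (log2 0.04, adjusted p = 0.566, edgeR). The cohesin gene rec-8 overlapped too, at 133, 147 and 134 CPM in simr-1 mutants and 139, 137 and 147 CPM in wild-type animals (log2 0.01, adjusted p = 0.865, edgeR). The break-forming enzyme gene spo-11 rose, with 106, 104 and 95.4 CPM in simr-1 mutants and 73.0, 65.1 and 75.1 CPM in wild-type animals (log2 0.56, adjusted p = 3.05e-07, edgeR). These 8 calls held under every alternative at the adjusted p threshold, and none was 2-fold (7.98% of all genes were 2-fold higher). Over the members the median log2 fold change was 0.37 and over all genes -0.15.

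**Figure D2:**
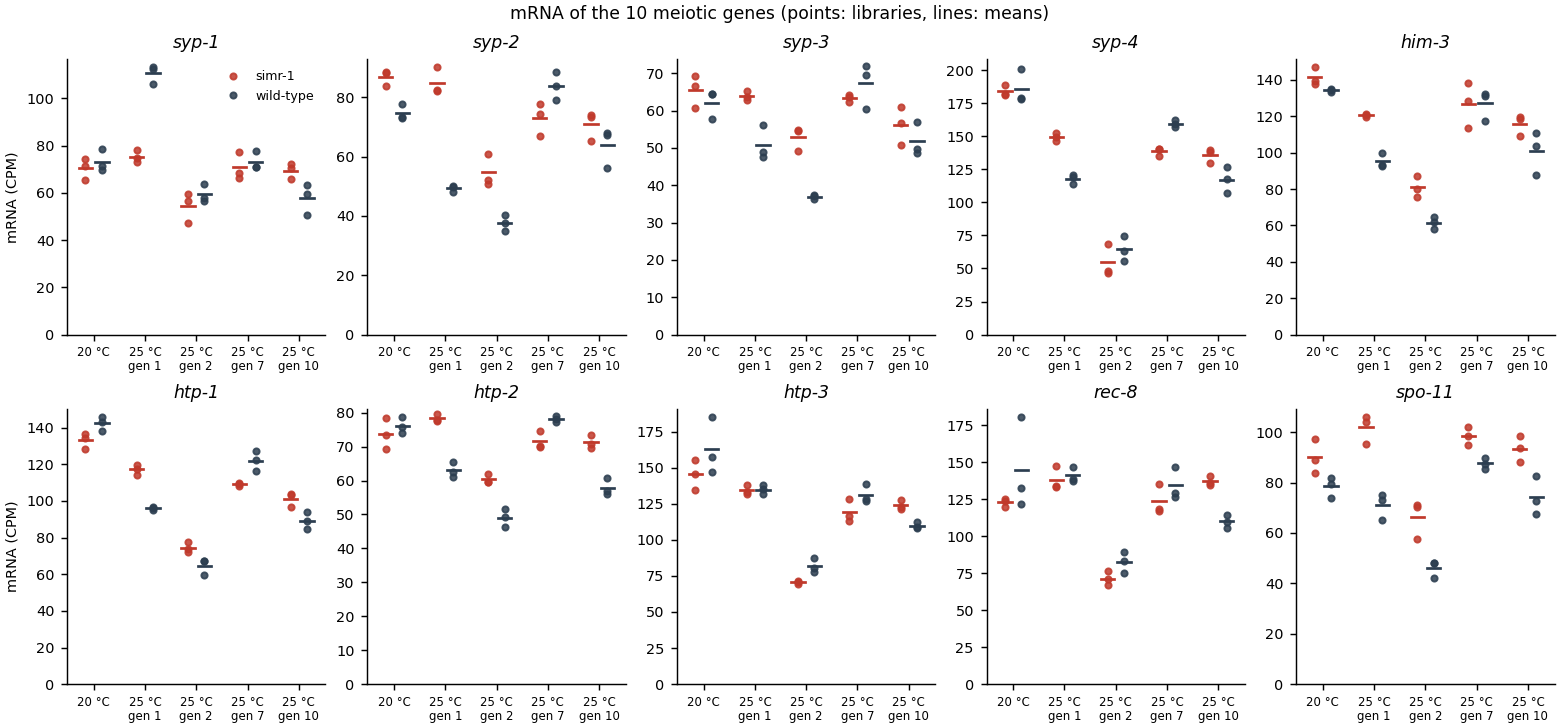
mRNA level (TMM-scaled CPM, vertical axis from 0) of each member, 1 panel per gene, at 20 °C and in generations 1, 2, 7 and 10 at 25 °C. Points are libraries (3 per group) and short lines group means, simr-1 in red to the left of wild-type in dark grey; wild-type syp-1 peaks at 106 to 113 CPM in generation 1, and most genes are lowest in generation 2 in both genotypes.

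So small RNA and mRNA differed together in generation 1 for syp-2, syp-3, syp-4, him-3, htp-1, htp-2 and spo-11, which were higher in simr-1 mutants by both measures. For syp-3 and spo-11 the small RNA call was lost with DESeq2, with edgeR's expression filter and with all groups in 1 fit. syp-1 was higher in small RNA and lower in mRNA. htp-3 and rec-8 were higher in small RNA (log2 1.39 and 1.32), with mRNA differences of 0.04 and 0.01 that did not pass.

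**Figure D3:**
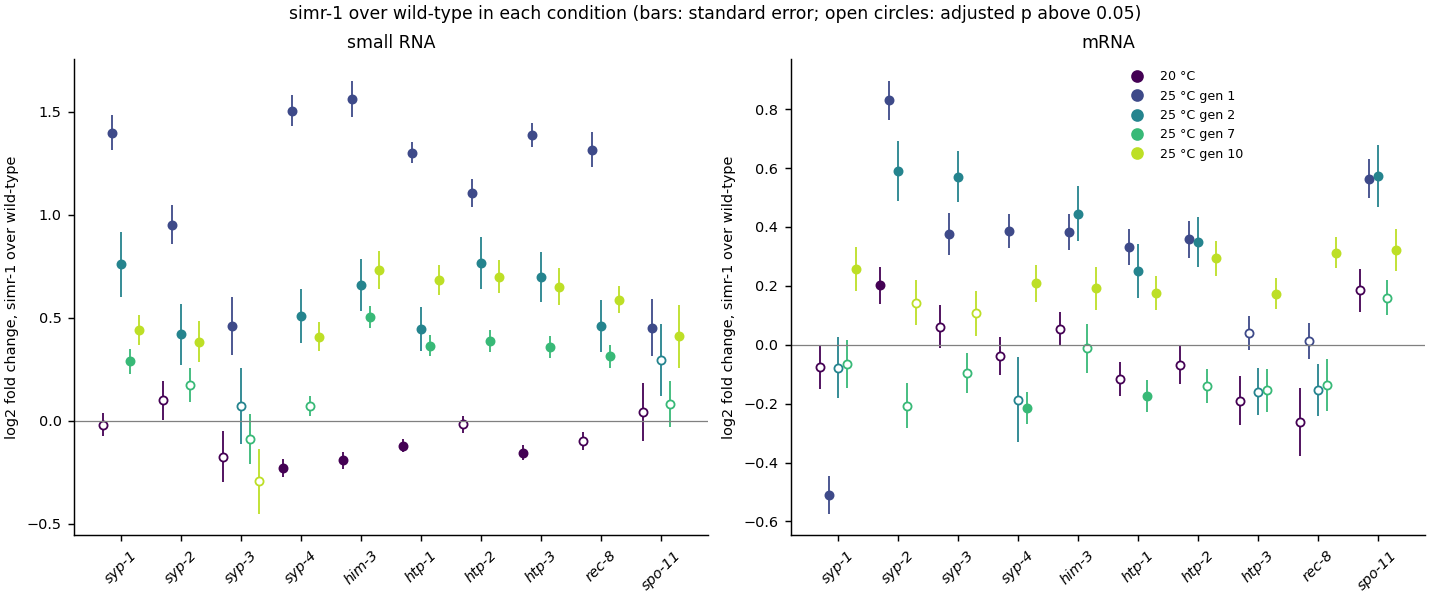
Log2 fold change of simr-1 over wild-type (TMM scale, vertical axis) for each member (horizontal axis) at the 5 conditions, small RNA on the left and mRNA on the right. Points are edgeR estimates with bars of 1 SE, and open circles did not pass at an adjusted p of 0.05; in generation 1 small RNA runs from 0.45 to 1.56 and mRNA from -0.51 to 0.83.

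In generation 2 the members that passed were all higher in simr-1 mutants: 6 of 10, beside 22.1% of all genes higher and 20.7% lower. syp-2 had 61.1, 52.3 and 50.7 CPM in simr-1 mutants and 40.5, 37.6 and 34.9 CPM in wild-type animals (log2 0.59, adjusted p = 0.00113, edgeR), and syp-3 had 54.6, 49.1 and 54.7 CPM in simr-1 mutants and 37.02, 37.3 and 36.2 CPM in wild-type animals (log2 0.57). spo-11 had 71.1, 57.7 and 70.2 CPM in simr-1 mutants and 48.1, 48.1 and 42.2 CPM in wild-type animals (log2 0.57). For these 3 genes every mutant library was above every wild-type library. him-3 (0.44), htp-2 (0.35) and htp-1 (0.25) passed as well. The other 4, with log2 values of -0.19 for syp-4, -0.16 for htp-3, -0.15 for rec-8 and -0.08 for syp-1, did not.

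In generation 7 the sign was the other way for the 2 members that passed, syp-4 and htp-1 (12.1% of all genes were lower and 15.0% higher). syp-4 had 140.2, 135 and 140.3 CPM in simr-1 mutants and 159, 162 and 157 CPM in wild-type animals (log2 -0.21, adjusted p = 0.0194, edgeR), and htp-1 had 109.5, 108 and 109 CPM in simr-1 mutants and 127, 122 and 117 CPM in wild-type animals (log2 -0.17, adjusted p = 0.0467, edgeR). Same-numbered replicates deviated together in this generation, but the calls and p-values above come from the test without pairs. With the replicate as a block 7 members passed, spo-11 as higher and syp-2, syp-4, htp-1, htp-2, htp-3 and rec-8 as lower. The shares of all genes above belong to the test without the block, and none was computed with it. Whether this count exceeds the effect of the block on all genes therefore cannot be told. No member passed as lower without simr-1 replicate 1, simr-1 replicate 2, wild-type replicate 1 or wild-type replicate 2, or with scaling to library size alone, where the all-gene median was 0.11 and spo-11 passed as higher.

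In generation 10, 8 members were higher in simr-1 mutants (20.9% of all genes) and none lower (25.2% of all genes). rec-8 had 135, 141 and 136 CPM in simr-1 mutants and 109.6, 115 and 105 CPM in wild-type animals (log2 0.31, adjusted p = 0.000175, edgeR). spo-11 had 98.3, 93.8 and 88.2 CPM in simr-1 mutants and 72.8, 82.7 and 67.4 CPM in wild-type animals (log2 0.32), and htp-2 had 73.6, 70.7 and 69.6 CPM in simr-1 mutants and 56.8, 60.7 and 56.2 CPM in wild-type animals (log2 0.29). The genotypes did not overlap for these 3. syp-1, which had been lower in the mutant in generation 1, now had 72.1, 70.3 and 65.7 CPM in simr-1 mutants and 63.4, 59.3 and 50.5 CPM in wild-type animals (log2 0.26, adjusted p = 0.00993, edgeR). syp-4, him-3, htp-1 and htp-3 were between 0.17 and 0.21, and syp-2 (0.14) and syp-3 (0.11) did not pass. The count was 4 without simr-1 replicate 2, 5 without wild-type replicate 1, and 3 with scaling to library size alone, which put the all-gene median at -0.15. Same-numbered replicates deviated together in this generation too, and the calls and p-values given here come from the test without pairs.

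Within wild-type animals, generation 1 at 25 °C separated syp-1 from the other members. syp-1 had 106, 113 and 113 CPM in generation 1 and 78.4, 69.9 and 71.4 CPM at 20 °C (log2 0.69 ± 0.07, adjusted p = 3.03e-07, edgeR), the only member that rose (42.7% of all genes), while 7 fell (31.4% of all genes). syp-4 fell to 118.8, 114 and 121 CPM in generation 1, against 201, 179 and 178 CPM at 20 °C (log2 -0.57 ± 0.07, adjusted p = 1.67e-06, edgeR). syp-2 (-0.50), htp-1 (-0.48), him-3 (-0.40), syp-3 (-0.20), htp-3 (-0.19) and htp-2 (-0.18) fell by less, and rec-8 and spo-11 gave 0.05 and -0.05. The call of htp-3 was lost without wild-type 20 °C replicate 1 (log2 -0.07, adjusted p = 0.226, edgeR), and rec-8 then passed as higher (0.25, adjusted p = 0.000449). With library-size scaling, which put the all-gene median at 0.43 instead of 0.28, 2 members passed as higher and 4 as lower. By generation 10 wild-type syp-1 had 63.4, 59.3 and 50.5 CPM, and against generation 1 it fell by 1.05 on the log2 scale (adjusted p = 3.36e-09, edgeR), the only 2-fold change of a member there (14.5% of all genes were 2-fold lower). rec-8, htp-3, htp-2 and htp-1 were also lower in generation 10 than in generation 1 (-0.47, -0.41, -0.24 and -0.22; 33.2% of all genes) and syp-2 was higher (0.26; 32.6% of all genes).

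Transcripts of simr-1 mutants in generation 1 differed from 20 °C by log2 values of -0.29 to 0.19, and those of wild-type animals by -0.57 to 0.69. In simr-1 mutants 2 members were higher (23.5% of all genes; rec-8 0.18 and spo-11 0.19) and 3 lower (19.7% of all genes; syp-4 -0.29, him-3 -0.22 and htp-1 -0.17), and syp-1 gave 0.12 (adjusted p = 0.168, edgeR). The count was 2 without 20 °C replicate 1 and 3 without 20 °C replicate 2. With library-size scaling, which put the all-gene median at 0.08 instead of 0.02, 4 members passed as higher and 2 as lower. Tested as an interaction, the response to generation 1 at 25 °C differed between genotypes for 8 members. It was lower in simr-1 mutants for syp-1 (-0.48, 24.9% of all genes were lower) and higher for syp-2, htp-1, htp-2, syp-4, spo-11, him-3 and syp-3 (0.58 to 0.27, 25.9% of all genes were higher). With library-size scaling, where the all-gene median of this term was -0.33, 3 members passed, 2 as higher and 1 as lower. Between generations 10 and 1 the interaction passed for syp-1 (0.92), rec-8 (0.45) and htp-3 (0.28) as higher (25.5% of all genes) and for syp-2 (-0.54) as lower (19.4% of all genes), and without wild-type generation 10 replicate 3 it passed for 7 members.

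The summed transcripts of the members were lowest in generation 2 in both genotypes. Summed over the 10 members, mRNA in simr-1 mutants was at 1107 to 1123 CPM at 20 °C, 1054 to 1078 CPM in generation 1, 606 to 682 CPM in generation 2, 983 to 1003 CPM in generation 7 and 942 to 996 CPM in generation 10. In wild-type animals the same sums were 1097 to 1201, 908 to 959, 569 to 595, 1058 to 1077 and 771 to 886 CPM. Single members followed this except syp-1 in wild-type animals, which averaged 57.7 CPM in generation 10 and 59.5 CPM in generation 2. Against generation 1, all 10 members were lower in generation 2 in simr-1 mutants (31.8% of all genes, 10.2% 2-fold) and in wild-type animals (16.6% of all genes). In simr-1 mutants syp-4 fell most, with 68.7, 46.6 and 48.4 CPM in generation 2 and 146, 153 and 149 CPM in generation 1 (log2 -1.47 ± 0.12, adjusted p = 7.36e-09, edgeR), followed by rec-8 (-0.98) and htp-3 (-0.96), and syp-3 fell least (-0.30). In wild-type animals the falls ran from -0.28 for htp-2 to -0.82 for syp-1. The all-gene median of the step in simr-1 mutants was 0.28 with TMM and 0.59 with library-size scaling, under which 7 members passed as lower and syp-3 came to 0.0062.

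In generation 7 against generation 1, 7 members were higher (32.1% of all genes) and syp-1 lower (34.6% of all genes) in wild-type animals, with syp-2 at 0.79 and syp-1 at -0.57, and htp-3 and rec-8 did not pass. With library-size scaling, which put the all-gene median at -0.27 instead of -0.09, 5 members passed as higher and 3 as lower. In simr-1 mutants only syp-2 passed, as lower (-0.20, adjusted p = 0.049, edgeR; 9.77% of all genes), and that call was lost without generation 7 replicate 1 or any of the 3 generation 1 replicates. Without generation 7 replicate 3, 2 members passed. Between generations 10 and 1, 7 members were lower in simr-1 mutants (21.4% of all genes), by 0.15 to 0.30 on the log2 scale, all but syp-1, him-3 and rec-8. That count was 2 without generation 10 replicate 3 or generation 1 replicate 1, 3 without generation 10 replicate 1 and 4 without generation 10 replicate 2.

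Other meiotic genes were counted from lists chosen with earlier results of these data known. In mRNA of generation 1, 10 of 14 other axis, cohesin and synaptonemal complex genes were higher in simr-1 mutants than in wild-type animals and 1 was lower, beside 31.8% of all genes higher and 36.7% lower. lab-1, which protects long-arm cohesion, was past 2-fold (log2 1.49, adjusted p = 9.25e-13, edgeR). All 26 measured genes of double-strand break formation and recombination were higher, with zhp-2 (1.11), a crossover-regulating RING finger gene, and brd-1 (1.01), the partner of the BRCA1 homolog, past 2-fold. Of 12 homolog pairing and meiotic entry genes 11 were higher, with hal-3 past 2-fold (1.06). In wild-type animals of generation 1 against 20 °C these lists had 10 of 14, 21 of 26 and 11 of 12 genes lower, led by zhp-2 (-1.38), brd-1 (-1.05) and the meiotic kinase gene chk-2 (-1.05), with 1, 0 and 1 higher (31.4% of all genes were lower and 42.7% higher). In generation 10, 12, 20 and 9 of the same lists were higher in simr-1 mutants than in wild-type animals (20.9% of all genes) and none lower (25.2% of all genes). In simr-1 mutants of generation 2 against generation 1, 13 of 14, 26 of 26 and 11 of 12 were lower (31.8% of all genes), with rmh-1 (-1.80), cra-1 (-1.66), chk-2 (-1.66) and rad-50 (-1.62) among them.

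By small RNA in generation 1, 13 of 14 other axis genes, 22 of 26 recombination genes and all 12 pairing genes were higher in simr-1 mutants than in wild-type animals, and 2 recombination genes were lower (35.7% of all genes were higher and 33.9% lower). The kinase genes chk-2 (log2 1.55) and plk-2 (1.55), the MutS homolog msh-5 (1.37), zhp-3 (1.34) and lab-1 (1.49) were past 2-fold. coh-4 (1.70) was as well, but coh-3 and coh-4 are near-identical copies, so its value is uncertain. A different course was seen for mlh-1, a mismatch repair homolog, whose small RNAs were lower in simr-1 mutants than in wild-type animals in generation 7 (-1.23, adjusted p = 8.64e-11, edgeR) and in generation 10 (-1.21).

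Markers of the tissues in a whole worm moved in the same comparisons. In mRNA of generation 1, the 15 germline markers summed to 7067 to 7212 CPM in simr-1 mutants and 4221 to 4477 CPM in wild-type animals (13 higher and 2 lower), the 10 oocyte markers to 10654 to 11400 CPM in simr-1 mutants and 2829 to 3360 CPM in wild-type animals (10 higher, median log2 2.16) and the 10 somatic markers to 14181 to 18731 CPM in simr-1 mutants and 22157 to 29875 CPM in wild-type animals (2 higher and 8 lower). In generation 2 germline markers summed to 2366 to 2786 CPM in simr-1 mutants and 2577 to 3271 CPM in wild-type animals, the lowest of the 5 conditions in both genotypes, as were the members. The 11 sperm markers summed to 85.6 to 100.5 CPM in simr-1 mutants and 41.5 to 46.7 CPM in wild-type animals of generation 2. In generation 10 the germline sums were 6272 to 6540 CPM in simr-1 mutants and 4555 to 4933 CPM in wild-type animals. No germline or oocyte marker was at 0. Their part in the differences of the members was not tested.

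**Figure D4:**
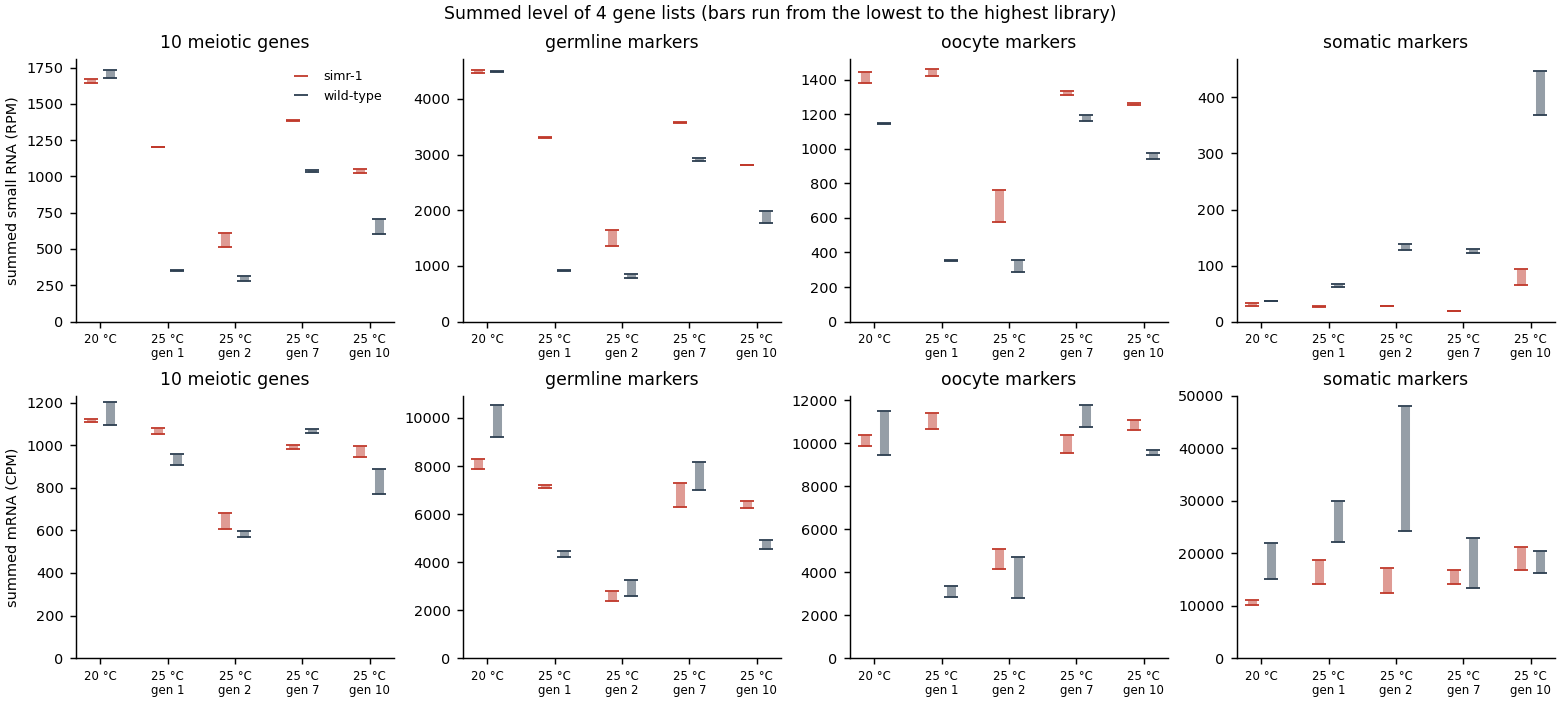
Summed levels of the 10 members and of germline, oocyte and somatic marker lists at the 5 conditions, small RNA (RPM) above and mRNA (CPM) below. Each bar is the range over the libraries of a group, simr-1 in red to the left of wild-type in dark grey; members, germline and oocyte markers are all low in wild-type small RNA of generation 1, where the members sum to 351 to 357 RPM.

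Across the 30 mRNA libraries the members rose and fell together except syp-1. The 45 pairwise correlations of log2 CPM had a median of 0.787. The 9 pairs with syp-1 had a median of 0.366 and a range of 0.124 to 0.699, and the 36 pairs without it a median of 0.854 and a range of 0.546 to 0.942. In small RNA over 20 libraries all pairs were between 0.791 and 0.997. Libraries of a group share treatment and depth, so these values describe the pattern only. The genes most like the mean of the members were metl-17 (r = 0.987), dnj-10 (0.986), Y32H12A.7 (0.983), hmgr-1 (0.981) and ints-9 (0.979), out of 7819 genes that averaged 10 CPM or more.

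In the single libraries at 20 °C there was 1 library per strain, so no test was made and intervals are exact Poisson 95% intervals that cover counting error only. Ratios are to the single wild-type library, with 0.5 RPM added. The highest median was in mut-16, which lacks the scaffold of the mutator complex, with a median log2 ratio of 0.81 (0.43 over all 6689 genes) and all 10 above wild-type, though with TMM scaling syp-3 was below it. syp-4 had 320.2 RPM (304 to 337) in mut-16 and 138 RPM (135 to 140.5) in wild-type, and rec-8 had 195 RPM (182 to 208) in mut-16 and 93.4 RPM (91.2 to 95.7) in wild-type. These 2 members were past 2-fold, as were 13% of all genes. With TMM scaling 0 members and 1.11% of all genes were past 2-fold, and with scaling to gene reads 4 members and 20.5% of all genes were. rde-8 (0.60), the nyn-1; nyn-2 double mutant (0.54) and wago-1 (0.46) were next, with medians over all genes of 0.31, 0.39 and 0.47. simr-1 had a median of 0.36, with all 10 above wild-type (8 with TMM scaling) and 0.26 over all genes, and simr-1; hpo-40 had 0.15. Medians were smaller for Y57G11C.3 (0.19), rsd-2 (0.12), hgo-1 (0.11), hpo-40 (0.08) and F37C4.5 (0.02). With TMM scaling the sign turned for wago-1 (-0.059), F37C4.5 (-0.028) and rsd-2 (-0.018).

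All 10 members were below wild-type in math-33 under each of the 3 scalings, and in C33G3.6 with scaling to genome-mapped reads. In math-33, which lacks a deubiquitinase, the median log2 ratio was -1.23 and 7 members were 2-fold lower, but so were 45.8% of all genes. syp-4 had 32.5 RPM (27.5 to 38.04) in math-33 and 138 RPM (135 to 140.5) in wild-type, and syp-1 had 16.4 RPM (12.97 to 20.5) in math-33 and 60.4 RPM (58.7 to 62.2) in wild-type. The median over all genes there was -0.94, and the study describes these animals as slow to grow and not uniform in stage. In C33G3.6 the median was -1.11 over the members and -0.37 over all genes, and 6 members were 2-fold lower beside 10.1% of all genes. With TMM scaling 4 members were 2-fold lower (6.61% of all genes) and spo-11 lay above wild-type (0.078). With scaling to gene reads only him-3 was 2-fold lower (-1.11; 3.17% of all genes), and syp-2 (0.16) and spo-11 (0.28) lay above wild-type. him-3 had 39.2 RPM (34.0 to 44.9) in C33G3.6 and 109 RPM (107 to 111) in wild-type (log2 -1.46). In C33G3.6 the summed small RNAs were at 46.4% of wild-type for the members, 44.2% for germline markers, 55.0% for oocyte markers, 87.7% for sperm markers and 362% for somatic markers. In math-33 they were at 38.8% for the members, 35.4% for germline markers, 35.6% for oocyte markers, 324% for sperm markers and 175% for somatic markers. In mut-16 the members were at 175%, germline markers at 154%, oocyte markers at 200%, sperm markers at 31.7% and somatic markers at 73.9%. The part of these markers in the ratios was not tested.

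**Figure D5:**
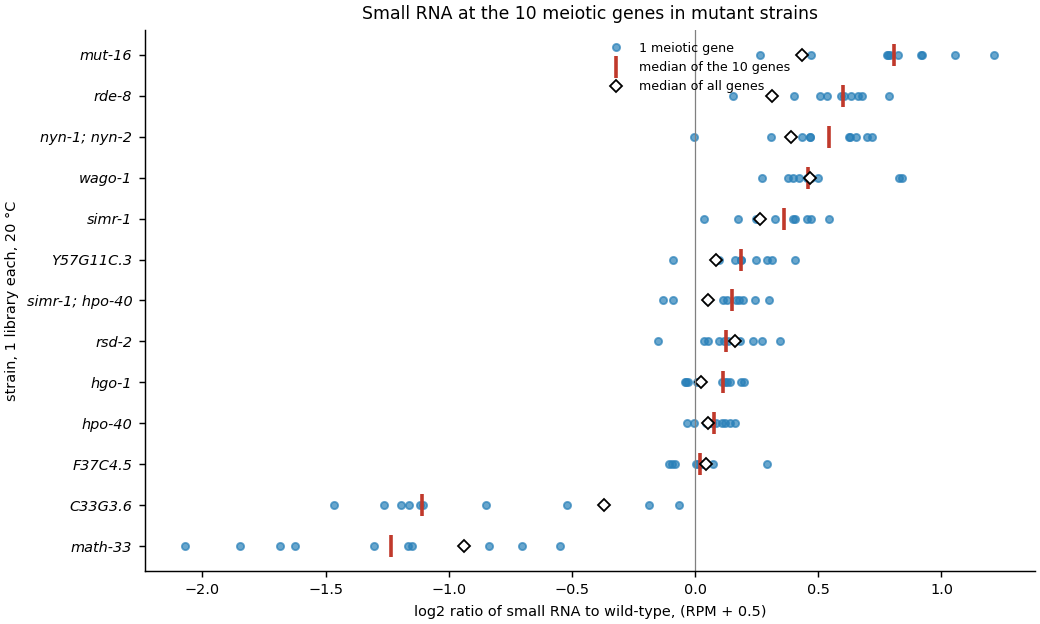
Log2 ratio of small RNA level to the single wild-type library at 20 °C (horizontal axis) for the 10 members in 13 mutant strains, 1 library each. Points are genes, red bars their median and open diamonds the median of all 6689 genes; C33G3.6 and math-33 lie below 0 with medians of -1.11 and -1.23.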

How the data were processed

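The authors trimmed mRNA reads with Cutadapt, aligned them with HISAT2 and deposited expected (estimated) counts per sequence name from Salmon, unnormalized. They trimmed and filtered small RNA reads with FASTX tools, aligned them with Bowtie2 and deposited counts per gene from featureCounts over WS258 exons without using strand. Reads that overlapped several genes were divided, so these deposited counts are estimated counts too. The mRNA data gave 45904 names over 46970 lines, of which 45648 names matched a gene identifier.

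Expected counts were rounded and tested with edgeR 4.0.16 (R 4.3.3; TMM scaling, quasi-likelihood test, Benjamini-Hochberg adjustment) on the compared groups, over all genes with at least 10 summed counts. A gene passed at an adjusted p of at most 0.05. The test was checked on simulated data. Alternatives were DESeq2 1.42.0, other scalings and filters, all groups in 1 fit, a replicate block and leaving out libraries. mRNA levels are TMM-scaled CPM over 30 libraries, and small RNA levels are reads per 1000000 genome-mapped reads, with the mapped totals that the study gives. Depth ran from 2392511 to 50329478 counts in the single small RNA libraries, and counting intervals cover counting error only. No 2 replicates agreed within sampling noise (lowest chi-square per degree of freedom 1.27). Replicate numbers are shared by the labels of all groups with no stated meaning. All 3 same-numbered pairs deviated together in mRNA of simr-1 against wild-type in generation 7 (r = 0.41 to 0.64) and generation 10 (r = 0.10 to 0.31). The block therefore counts as a pairing there, but the p-values printed above come from the test without it. Small RNA of simr-1 against wild-type in generation 2 also had r = 0.36 between same-numbered replicates. Its values above come from the test without a block.

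The members and lists were chosen with earlier results of these data known. All 10 members are described in every comparison. Of the other lists, at most the 2 largest changes in each direction past 2-fold could be named per comparison, and the 5 genes with the highest Pearson r to the members' mean. pqn-85 and rad-54 were not matched and are not used here. Comparisons of generations 2 and 7 with generation 1 within a genotype were added after values were seen.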

Additional observations from a re-analysis of the deposited data

Results flagged for a closer look

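The simr-1 effect differed between conditions for the members below, by edgeR's quasi-likelihood test of the interaction with Benjamini-Hochberg adjustment over all genes. Values are differences between log2 fold changes of simr-1 over wild-type, on the TMM scale. For small RNA, 23.7% of all genes passed as higher in generation 1 against 20 °C, and 28.2% as lower in generation 10 against 1. For mRNA, 25.9% passed as higher and 24.9% as lower in the first term, and 25.5% and 19.4% in the second.

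For small RNA, the effect in generation 1 at 25 °C was above that at 20 °C by 1.63 for him-3 (adjusted p = 1.08e-10), 1.61 for syp-4 (3.79e-11), 1.41 for htp-3 (6.43e-12), 1.29 for htp-1 (5.81e-12), syp-1 (7.68e-09) and rec-8 (1.99e-09), 0.99 for htp-2 (4.73e-09), 0.72 for syp-2 (0.00019) and 0.50 for syp-3 (0.0423). In generation 10 it was below that of generation 1 for 8 members, with differences of -0.96 for syp-4 (1.48e-06), -0.82 for syp-1 (1.99e-05), -0.69 for him-3 (0.000547), -0.61 for syp-3 (0.0346), -0.60 for htp-3 (0.000307), -0.59 for rec-8 (0.000446), -0.48 for htp-1 (0.000434) and -0.43 for syp-2 (0.0192). The all-gene median of this second term was -0.28, and the count depended on the filter and on single libraries, as given above.

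For mRNA, the effect in generation 1 was above that at 20 °C by 0.58 for syp-2 (9.82e-06), 0.40 for htp-1 (0.000254), 0.38 for htp-2 (0.00127), 0.37 for syp-4 (0.00102), 0.33 for spo-11 (0.00892), 0.28 for him-3 (0.00821) and 0.27 for syp-3 (0.0378), and the difference was -0.48 for syp-1 (0.000238). Between generations 10 and 1 it was 0.92 for syp-1 (4.33e-08), 0.45 for rec-8 (4.07e-05), 0.28 for htp-3 (0.00305) and -0.54 for syp-2 (0.000128). Of the members past the threshold in both mRNA tests, syp-1 was lower in the first and higher in the second, and syp-2 higher in the first and lower in the second.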

How the results depend on the processing

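Counts of members passing are given with the count at the standard settings in brackets. DESeq2 gave 0 [1] for mRNA at 20 °C, 4 [7] for mRNA of simr-1 in generation 10 against 1, 1 [4] for small RNA at 20 °C, 1 [6] for small RNA of wild-type in generation 10 against 1, 0 [1] for small RNA of wild-type in generation 2 against 1 and 3 [5] for small RNA of simr-1 in generation 7 against 1. DESeq2 size factors in edgeR gave 0 [1] for mRNA at 20 °C and 2 [1] for mRNA of simr-1 in generation 7 against 1. All 10 groups in 1 fit gave, for mRNA, 2 [1] at 20 °C, 5 [2] in generation 7, 3 [5] for simr-1 in generation 1 against 20 °C, 3 [1] for simr-1 in generation 7 against 1 and 2 [4] for the interaction of generations 10 and 1, and, for small RNA, 0 [4] at 20 °C and 4 [1] for wild-type in generation 2 against 1. A 2-fold limit left 0 members in mRNA except 1 [6] for wild-type in generation 10 against 1 and 1 [10] for simr-1 in generation 2 against 1. For small RNA it left 7 [10] in generation 1 between genotypes, 6 [7] for wild-type in generation 1 against 20 °C, 2 [8] for wild-type in generation 7 against 1 and 0 elsewhere. The expression filter of edgeR gave 0 [1] for mRNA of simr-1 in generation 7 against 1, 5 [8] for the mRNA interaction of generation 1 with 20 °C and 2 [8] for the small RNA interaction of generations 10 and 1. Scaling to genome-mapped reads gave 1 [4] for small RNA at 20 °C and 6 [0] for small RNA of simr-1 in generation 10 against 1. Library-size scaling of mRNA gave 2 [1] at 20 °C, 1 [2] in generation 7, 3 [8] in generation 10, 2 [7] for simr-1 in generation 10 against 1, 0 [1] for simr-1 in generation 7 against 1 and 3 [8] for the interaction of generation 1 with 20 °C. No filter on low counts gave 1 [2] for mRNA in generation 7 and 2 [0] for small RNA of simr-1 in generation 10 against 1. A replicate block gave 2 [1] for mRNA at 20 °C, 7 [2] for mRNA in generation 7, 0 [1] for mRNA of simr-1 in generation 7 against 1, 1 [0] for small RNA of simr-1 in generation 10 against 1 and 0 [1] for small RNA of wild-type in generation 2 against 1. In mRNA of generation 10, where numbers also paired the samples, the block gave 9 [8]. Correlations of same-numbered replicates were -0.14 in small RNA between genotypes in generation 10 and in small RNA of wild-type generations 2 and 1, and a crossed pairing, added after values were seen, gave 9 [9] and 1 [1].

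Leaving out 1 library gave, between genotypes, 0 to 1 [1] at 20 °C, 8 [8] in generation 1, 5 to 6 [6] in generation 2, 0 to 3 [2] in generation 7 and 4 to 10 [8] in generation 10 for mRNA, and 4 to 5 [4], 9 [10], 7 to 8 [8], 6 [6] and 8 to 9 [9] for small RNA. Against generation 1 or, for generation 1, against 20 °C, the mRNA ranges in wild-type were 7 to 8 [8] for generation 1, 8 to 10 [10] for generation 2, 8 to 9 [8] for generation 7 and 6 to 7 [6] for generation 10, and in simr-1 they were 2 to 5 [5], 10 [10], 0 to 2 [1] and 2 to 7 [7]. The small RNA ranges were 7 [7], 0 to 1 [1], 7 to 8 [8] and 2 to 5 [6] in wild-type and 6 to 8 [7], 8 to 10 [9], 4 to 6 [5] and 0 to 1 [0] in simr-1. Small RNA of simr-1 in generation 10 against 1 gave its 1 member without generation 10 replicate 1 or generation 1 replicate 2, and the wild-type call of generation 2 was lost without generation 2 replicate 1 or either generation 1 replicate. The interactions gave 7 to 8 [8] and 3 to 7 [4] for mRNA and 8 to 9 [9] and 3 to 9 [8] for small RNA.

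In the replicated comparisons direction turned in 5 values of single members that passed under the standard or the other setting. Sign changes of values that passed under neither were not counted. Among the 5 was syp-3 mRNA of simr-1 in generation 2 against 1 (0.0062 with library-size scaling). The others were small RNA values with scaling to genome-mapped reads. They were spo-11 in wild-type for generation 1 against 20 °C (-0.75), generation 10 against 1 (0.11) and generation 7 against 1 (0.58), and htp-1 in simr-1 for generation 10 against 1 (-0.16). In the strains, TMM scaling moved the median log2 ratio of the members to 0.31 in rde-8, 0.14 in simr-1, -0.059 in wago-1, 0.20 in nyn-1; nyn-2, 0.46 in mut-16, -0.028 in F37C4.5 and -0.018 in rsd-2, and scaling to gene reads moved it to -0.76 in C33G3.6, 0.30 in simr-1; hpo-40, 0.68 in nyn-1; nyn-2 and 0.91 in mut-16. Of 130 single member values in the strains, 26 turned direction with TMM and 9 with scaling to gene reads. Every sign change was counted there, as no test was made. The cause of these changes was not tested. With 2 small RNA libraries per group and 8055126 counts in the smallest mRNA library, precision is limited most for syp-3 and spo-11, the members with the fewest small RNA reads.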
